A study of Mus musculus with 6 samples.

Results

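This section describes 34 genes that build the contractile apparatus of skeletal muscle, handle its calcium and supply its energy. The genes were read on 6 arrays described as mouse visceral (gonadal) white fat. They were taken by gene symbol from 18193 genes with a probe set of their own, and a gene with several probe sets was read from the one with the highest mean over the 6 arrays. AFO mice carry adiponectin-Cre and floxed Fto, and control mice carry the floxed Fto alone, so both genotypes share the floxed allele. All were male C57BL/6 mice aged 16 weeks on a chow diet, and the fat was taken in the random-fed state. Each genotype has 3 arrays, and each array holds RNA pooled from mice of 1 genotype, here called pools 1, 2 and 3 after the sample descriptions. The number of mice in a pool is not given in the sources used here. Adiponectin is a fat cell gene, so the Cre acts in fat cells. The labels name white fat as the tissue, and whether any muscle came with it was not tested.

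A skeletal muscle fibre contracts when myosin heads of the thick filament pull on actin of the thin filament, within a repeating unit called the sarcomere. Calcium released from the sarcoplasmic reticulum binds troponin C, which moves tropomyosin and opens actin to myosin. Fast and slow fibres use different forms of the same proteins, encoded by separate genes, so the fast and slow genes of a tissue can be read apart. Skeletal muscle fibres are not a cell type of fat. Of the 34 genes, 13 encode fast fibre forms, 6 encode slow fibre forms and 15 are used by both kinds.

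Values are log2 levels made by the authors with RMA, so a difference of 1 log2 unit is a 2-fold difference in signal, and levels of different probe sets are not compared with each other. The 3 arrays per genotype limit the precision of every comparison. The tissue label was checked on fat cell genes: Adipoq, which encodes the hormone adiponectin, had log2 levels of 13.42, 13.14 and 13.22 in AFO pools 1, 2 and 3, against 13.43, 13.30 and 13.36 in the control pools, and Fabp4, the fat cell fatty acid binding protein, had 13.84, 13.65 and 13.84 in AFO fat, against 13.85, 13.83 and 13.85 in control fat. All 9 measured fat cell genes had an AFO minus control difference below 0, with a median of -0.20, and 0 of them passed the test described further on. Fto read 6.13, 5.45 and 5.95 in AFO fat and 6.11, 6.20 and 5.59 in control fat. The groups overlapped, and the Fto probe set was not compared with the floxed part, so it does not check the genotype. The 2 pool 2 arrays stood apart from the other 4 on the first principal component. They were at 57.5 for AFO and 37.2 for control, against -28.0 to -19.6. The median of the 34 genes and the counts of genes passing are therefore also given without both of them. The log2 level minus the gene's mean had a median over 7 mesothelial genes of -2.78 in AFO and -2.01 in control pool 2. In the other 4 arrays it was 1.07 to 1.19. The check on fat cell genes does not name a depot, and whether all arrays hold the same depot was not tested.

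The promoters of 4 genes are shown as examples of the groups described next: Myh4 of the fast genes, Acta1 of the genes of both kinds, and Tnnc1 and Myl2 of the slow genes. They are not typical in all respects. Within pool 3 Acta1 was 1.24 log2 units higher in AFO fat, where the genes of both kinds had a median of 0.033. Each sequence is a RefSeq window of 300 bases (build GRCm38.p6), from 250 bases before to 50 bases after a start of the gene, 5′ to 3′ on the gene's strand. Capitals mark the MEF2 element, the CArG box (bound by serum response factor), the MCAT element CATTCC (bound by TEAD factors) and the TATA box TATAAA, searched on both strands. Myl2 has another window, which begins at chr5:122092474 and is not shown. That window held none of the marked elements.
Myh4, chr11:67237562-67237861, plus strand: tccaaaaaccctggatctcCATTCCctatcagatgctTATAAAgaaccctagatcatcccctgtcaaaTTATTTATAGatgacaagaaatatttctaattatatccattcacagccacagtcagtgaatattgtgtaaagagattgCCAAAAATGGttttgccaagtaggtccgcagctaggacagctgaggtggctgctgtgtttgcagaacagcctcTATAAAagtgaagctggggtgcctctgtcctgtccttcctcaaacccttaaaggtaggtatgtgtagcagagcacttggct
Acta1, chr8:123894726-123895025, minus strand: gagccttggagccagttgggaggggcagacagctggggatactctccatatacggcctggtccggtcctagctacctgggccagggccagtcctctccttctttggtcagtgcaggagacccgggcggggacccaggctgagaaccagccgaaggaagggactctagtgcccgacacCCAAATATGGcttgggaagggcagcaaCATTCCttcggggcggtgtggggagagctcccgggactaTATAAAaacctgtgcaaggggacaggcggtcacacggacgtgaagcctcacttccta
Tnnc1, chr14:31208062-31208361, plus strand: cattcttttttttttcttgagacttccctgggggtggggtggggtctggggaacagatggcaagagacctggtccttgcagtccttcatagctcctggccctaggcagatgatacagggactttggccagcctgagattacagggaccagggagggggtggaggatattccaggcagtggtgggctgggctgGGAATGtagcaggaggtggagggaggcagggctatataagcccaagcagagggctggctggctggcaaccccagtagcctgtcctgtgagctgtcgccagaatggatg
Myl2, chr5:122092939-122093238, plus strand: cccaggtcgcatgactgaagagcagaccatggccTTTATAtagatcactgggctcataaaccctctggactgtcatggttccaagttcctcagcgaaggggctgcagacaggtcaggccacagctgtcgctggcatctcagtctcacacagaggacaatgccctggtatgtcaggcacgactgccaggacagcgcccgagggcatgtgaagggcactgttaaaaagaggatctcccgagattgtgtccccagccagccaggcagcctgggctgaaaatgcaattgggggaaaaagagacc
Promoter windows were found for 28 of the 34 genes, 35 windows in all, some of them overlapping. The MEF2 element was in 4 of the 35 member windows (11.4%), against 3.2% of all 32851 windows. The 4 were those of the fast genes Myh1, Myh4 and Pvalb and of Ttn, and 0 of the 9 windows of slow genes held it. The CArG box was in 5 member windows (14.3%), against 1.6% of all windows, and the MCAT element in 11 (31.4%), against 14.7%. Overlapping Ldb3 windows held the same CArG box, so 4 of the 28 genes had it. The E-box CANNTG, the site of myogenic factors, was in 29 member windows (82.9%) and in 72.3% of all windows, and TATAAA in 7 (20.0%), against 13.6%. A TATAAA can lie within a MEF2 element, as in Myh4. These are matches of letters, not binding sites.

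Most of the 34 genes shared 1 order of arrays. Their log2 level was highest in AFO pool 2, lower in AFO pool 1 and control pool 2, and lowest in AFO pool 3 and control pools 1 and 3. In 30 of the 34 genes all of AFO pools 1 and 2 and control pool 2 stood above all of the other 3 arrays, an order that 5.86% of all genes had. The 4 exceptions were Myl2, Tnnt1, Tpm2 and Ldb3. AFO pool 2 stood at least 1 log2 unit above every other array in 27 of the 34 (0.803% of all genes), 13 of 13 fast genes and 14 of 15 genes of both kinds among them. Of the 6 slow genes 4 were among the 30, but 5 of the 6 were highest in AFO pool 1 and 0 in AFO pool 2. Those 4 had the order by small margins. Myh7 read 4.053 in AFO pool 2 against 4.043 in control pool 3, and Tnnc1 read 5.45 in control pool 2 against 5.36 in AFO pool 3. The genes are read from the same 6 RNA pools, so they are not independent of each other. In bulk RNA, fewer cells of a type and less RNA per cell cannot be told apart.

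**Figure D1:**
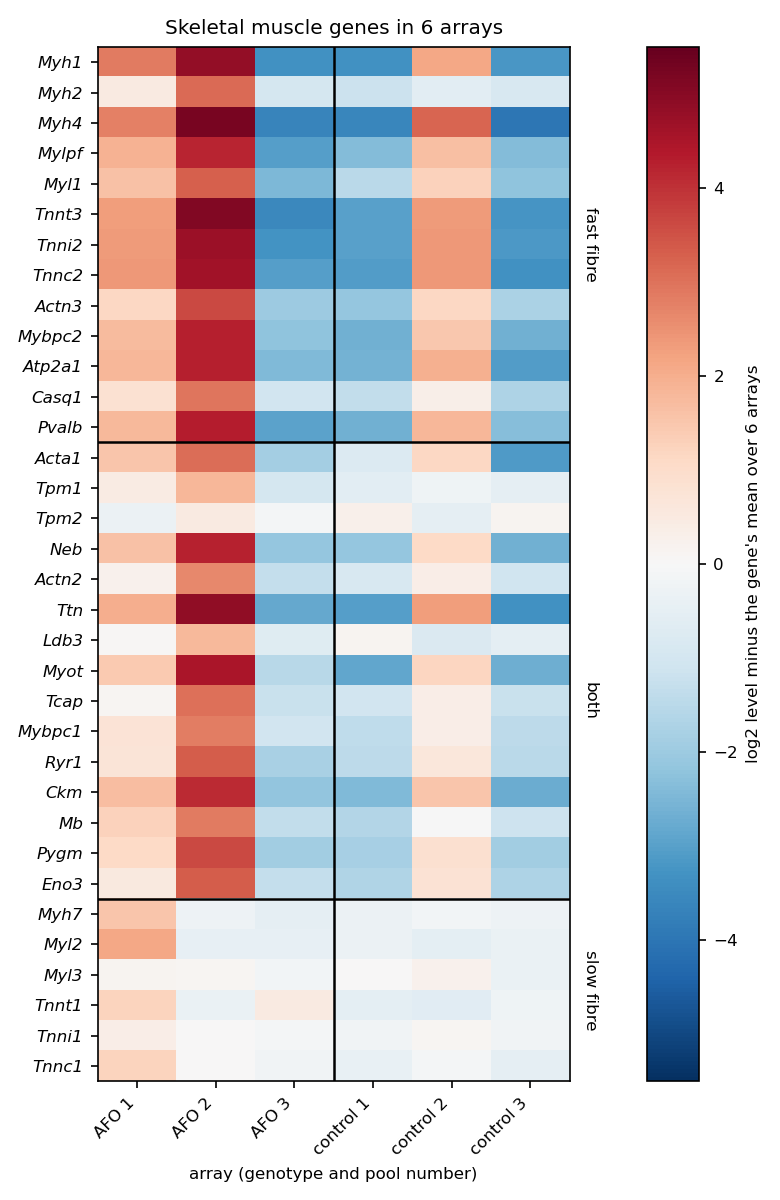
Log2 level minus the gene's own mean over the 6 arrays, for the 34 genes (rows, grouped as fast, both and slow) in the 3 AFO and 3 control arrays (columns). Fast genes and most genes of both kinds are red in AFO pool 2, paler red in AFO pool 1 and control pool 2 and blue elsewhere, and 5 of the 6 slow genes are reddest in AFO pool 1.

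Myosin heavy chains are the motors of the thick filament, and the form used sets the speed of the fibre. Myh4, the fastest form (IIb), had log2 levels of 9.84, 12.31 and 3.44 in AFO pools 1, 2 and 3, against 3.48, 10.28 and 3.13 in the control pools. It was high in 3 arrays and low in the other 3, and the genotypes overlapped. Myh1, the IIx form, read 8.87, 10.85 and 2.69 in AFO fat, against 2.68, 8.13 and 2.79 in control fat, high in the same 3 arrays, with AFO pool 1 above control pool 2. Myh2, the IIa form of fast oxidative fibres, read 5.14, 7.78 and 3.68 in AFO fat, against 3.47, 4.06 and 3.76 in control fat. Its control pool 2 value was close to those of the other controls, where Myh4 and Myh1 were both high. Myh7, the slow form shared with the heart, read 5.86, 4.05 and 3.82 in AFO fat, against 4.01, 4.16 and 4.04 in control fat, and AFO pool 1 was the 1 array that stood out. Myh2 and Myh7 had a mean below the detection filter (the 40th percentile of all probe sets, 4.88) and were not tested. The Myh genes are close relatives, and their probe sets were not checked for shared sequence.

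Myosin light chains bind the neck of the heavy chain. Mylpf, the fast regulatory light chain, had log2 levels of 9.45, 11.74 and 4.50 in AFO pools 1, 2 and 3, against 5.17, 9.20 and 5.13 in the control pools. Myl1, the fast essential light chain, read 10.56, 12.24 and 6.45 in AFO fat, against 7.46, 10.22 and 6.71 in control fat. Both were highest in AFO pool 2, with AFO pool 1 and control pool 2 next. Myl2, the slow regulatory form, read 6.16, 3.58 and 3.61 in AFO fat, against 3.74, 3.53 and 3.69 in control fat, high in AFO pool 1 only, and lay below the filter. Myl3, the slow essential form, read 6.24, 6.21 and 5.94 in AFO fat, against 6.12, 6.35 and 5.73 in control fat and hardly differed between arrays. A second Myl3 probe set with a lower mean, not used by the rule, read 6.28, 4.48 and 3.92 in AFO fat, against 4.25, 4.08 and 4.19 in control fat, also highest in AFO pool 1. The third read 5.52, 5.19 and 5.13 in AFO fat, against 5.15, 5.18 and 5.04 in control fat.

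The thin filament holds actin, tropomyosin and the troponins. Acta1, skeletal muscle alpha-actin, had log2 levels of 11.49, 13.02 and 8.12 in AFO pools 1, 2 and 3, against 9.20, 11.10 and 6.87 in the control pools. It was higher in the AFO array within each pool number, by 2.29, 1.92 and 1.24, although the 2 groups overlapped. Tnnc2, the fast troponin C that binds calcium, read 10.39, 12.62 and 4.97 in AFO fat, against 4.90, 10.36 and 4.68 in control fat, and Tnnc1, the slow and cardiac form, read 6.81, 5.58 and 5.36 in AFO fat, against 5.16, 5.45 and 5.07 in control fat. Tnnc2 was high in AFO pools 1 and 2 and control pool 2, whereas Tnnc1 was high in AFO pool 1 alone. Tnnt3 and Tnni2, the fast troponins T and I, had AFO levels of 9.06, 11.83 and 3.22 and of 9.54, 11.92 and 3.92, against control levels of 3.74, 9.10 and 3.50 and of 4.23, 9.61 and 4.05. The slow troponin T gene Tnnt1 read 6.16, 4.55 and 5.42 in AFO fat, against 4.39, 4.27 and 4.67 in control fat, and here AFO pool 3 also stood above the controls. Tnni1, the slow troponin I, read 5.63, 5.27 and 5.15 in AFO fat, against 5.09, 5.37 and 5.09 in control fat, with AFO pool 1 highest by a small margin. Neb, the giant ruler of the thin filament, read 7.41, 10.04 and 3.66 in AFO fat, against 3.69, 6.89 and 3.17 in control fat.

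The tropomyosins, which other cells of the tissue also make, varied less. Tpm1 had log2 levels of 10.42, 11.77 and 8.98 in AFO fat, against 9.36, 9.73 and 9.47 in control fat, with AFO pool 2 on top, and Tpm2 read 9.15, 9.99 and 9.38 in AFO fat, against 9.76, 8.96 and 9.62 in control fat, with the 6 arrays within about 1 unit. Other probe sets of both genes gave other patterns. A Tpm1 probe set read 9.37, 8.08 and 9.44 in AFO fat, against 9.75, 8.29 and 9.42 in control fat, lower in both pool 2 arrays, and a Tpm2 probe set read 7.46, 10.02 and 4.15 in AFO fat, against 4.18, 7.29 and 5.11 in control fat, in the order of the fast genes. Which transcripts each probe set reads was not examined.

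The Z-disc anchors the thin filaments, and titin spans from it to the middle of the sarcomere. Ttn, which encodes titin, had log2 levels of 8.68, 11.56 and 3.87 in AFO pools 1, 2 and 3, against 3.69, 9.01 and 3.37 in the control pools. Actn3, the alpha-actinin of fast fibres, read 9.10, 11.56 and 5.97 in AFO fat, against 5.81, 9.07 and 6.19 in control fat, and Actn2, the form of all fibres, read 5.60, 7.98 and 4.04 in AFO fat, against 4.46, 5.72 and 4.25 in control fat. In these 3 genes AFO pool 2 was highest by more than 2 units. Myot, a Z-disc protein that cross-links actin, read 7.23, 10.31 and 4.26 in AFO fat, against 2.95, 6.99 and 3.10 in control fat, and like Acta1 it was more than 1 unit higher in AFO fat within pool 3 as well (4.27, 3.32 and 1.16 within pools 1, 2 and 3). Tcap, which caps titin at the Z-disc, read 6.99, 9.88 and 5.63 in AFO fat, against 5.80, 7.23 and 5.66 in control fat. Ldb3, a Z-disc protein of skeletal and heart muscle, read 7.49, 9.18 and 6.76 in AFO fat, against 7.58, 6.61 and 6.89 in control fat, where control pool 1 was as high as AFO pool 1. A second Ldb3 probe set read 7.11, 9.40 and 4.40 in AFO fat, against 5.11, 6.60 and 4.97 in control fat, in the order of the fast genes. Mybpc2, the fast myosin-binding protein C of the thick filament, read 9.00, 11.53 and 5.05 in AFO fat, against 4.60, 8.73 and 4.63 in control fat, and Mybpc1, a form named for slow fibres but counted here with both kinds, read 6.94, 9.00 and 5.14 in AFO fat, against 4.81, 6.54 and 4.75 in control fat.

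The 4 calcium handling genes, of which Atp2a1, Pvalb and Casq1 are counted as fast, shared the order of the fast genes. Atp2a1, the calcium pump SERCA1 of fast fibres, had log2 levels of 9.92, 12.36 and 5.65 in AFO pools 1, 2 and 3, against 5.49, 10.03 and 5.02 in the control pools. Pvalb, the calcium buffer parvalbumin that speeds relaxation of fast fibres, read 9.20, 11.75 and 4.50 in AFO fat, against 4.80, 9.24 and 5.09 in control fat. Casq1, which stores calcium in the sarcoplasmic reticulum, read 7.41, 9.53 and 5.50 in AFO fat, against 5.20, 6.89 and 4.87 in control fat. Ryr1, the calcium release channel, read 7.31, 9.90 and 4.82 in AFO fat, against 5.16, 7.22 and 5.11 in control fat. All 4 were highest in AFO pool 2 and had AFO pool 1 and control pool 2 above the other 3 arrays.

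So did the genes of energy and oxygen supply. Ckm, the muscle creatine kinase that rebuilds ATP, had log2 levels of 9.56, 11.96 and 5.71 in AFO pools 1, 2 and 3, against 5.45, 9.38 and 5.12 in the control pools. Pygm, the glycogen phosphorylase of muscle, read 8.35, 10.88 and 5.34 in AFO fat, against 5.42, 8.13 and 5.30 in control fat, and Eno3, the muscle enolase of glycolysis, read 8.31, 11.11 and 6.45 in AFO fat, against 6.12, 8.58 and 6.09 in control fat. Mb, which encodes the oxygen store myoglobin, read 7.91, 9.46 and 5.26 in AFO fat, against 5.01, 6.61 and 5.51 in control fat. Mb was the gene of both kinds with the greatest excess of AFO pool 1 over control pool 2, 1.30 log2 units. A second Mb probe set hardly varied, at 6.05, 6.41 and 6.30 in AFO fat, against 6.27, 6.33 and 6.39 in control fat.

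Fast and slow genes parted in AFO pool 1 and in pool 2. In the log2 difference of AFO pool 2 minus AFO pool 1, all 13 fast genes were above 0, between 1.68 (Myl1) and 2.77 (Tnnt3) with a median of 2.44, and all 6 slow genes were below 0, between -2.58 (Myl2) and -0.024 (Myl3) with a median of -1.42. AFO pool 1 minus control pool 2 had a median of 0.027 over the fast genes, from -0.44 (Myh4) to 1.07 (Myh2), and of 1.53 over the slow genes, from -0.11 (Myl3) to 2.62 (Myl2). Control pool 2 minus the mean of control pools 1 and 3 had a median of 4.29 over the fast genes and 0.21 over the slow genes. AFO pool 1 was at least 1 log2 unit above every other array in 3 slow genes (Myh7, Myl2 and Tnnc1) and in 0 fast genes, against 0.22% of all genes. Each of these differences is between single arrays or pool numbers, so none has a test.

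**Figure D2:**
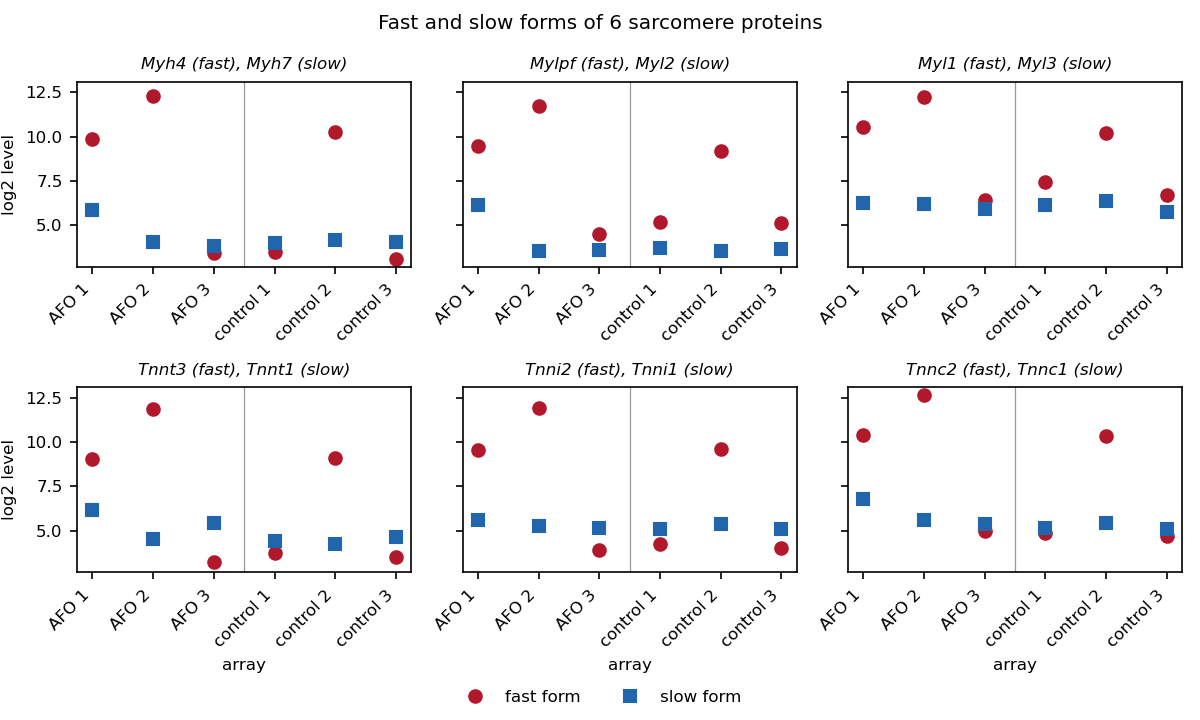
Log2 level (vertical axis) of the fast form (red circles) and slow form (blue squares) of 6 sarcomere proteins in the 3 AFO and 3 control arrays (horizontal axis). The fast forms are high in AFO pools 1 and 2 and control pool 2, and Myh7, Myl2, Tnnt1 and Tnnc1 are highest in AFO pool 1. The heights of the 2 forms within a panel come from different probe sets and are not to be compared.

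Within pool 2 the AFO array exceeded the control array by a similar amount across the fast genes. The log2 difference of AFO minus control lay between 2.02 (Myl1) and 3.72 (Myh2), and in 12 of the 13 between 2 and 3, with a median of 2.51. The genes of both kinds had a median of 2.57 and the slow genes one of -0.026. Within pool 1 the differences were more spread. They ran from 1.67 (Myh2) to 6.36 (Myh4) over the fast genes, with a median of 4.40, and the medians were 2.19 for the genes of both kinds and 1.70 for the slow genes. Within pool 3 the medians were -0.11 for the fast genes, 0.033 for those of both kinds and 0.13 for the slow genes, and 17 of the 34 genes were above 0 and 17 below. Several of the low values lay under the filter level of 4.88. Myh4, for example, read 3.48 in control pool 1, and 3.44 and 3.13 in the AFO and control arrays of pool 3. Also under it in pool 2, the slow genes Myh7, Myl2 and Tnnt1 read 4.05, 3.58 and 4.55 in AFO fat, against 4.16, 3.53 and 4.27 in control fat. The fast gene Myh2 read 4.06 in control pool 2. RMA compresses low signals, so differences from such values are less certain in size and sign in any pool. At least 1 log2 unit above the control array were 30 of the 34 genes in pool 1 (1.77% of all genes), 28 in pool 2 (1% of all genes) and 2 in pool 3 (1.32% of all genes), the last being Acta1 and Myot. In pools 1 and 2 alike 26 of the 34 were (0.346% of all genes). In 0 of the 34 was the AFO array at least 1 unit lower in any pool, where all genes gave 0.132%, 0.247% and 0.434% in pools 1, 2 and 3. In control fat alone, pool 2 stood at least 1 unit above both other pools in 24 of the 34 genes, and 1.74% of all genes did so.

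**Figure D3:**
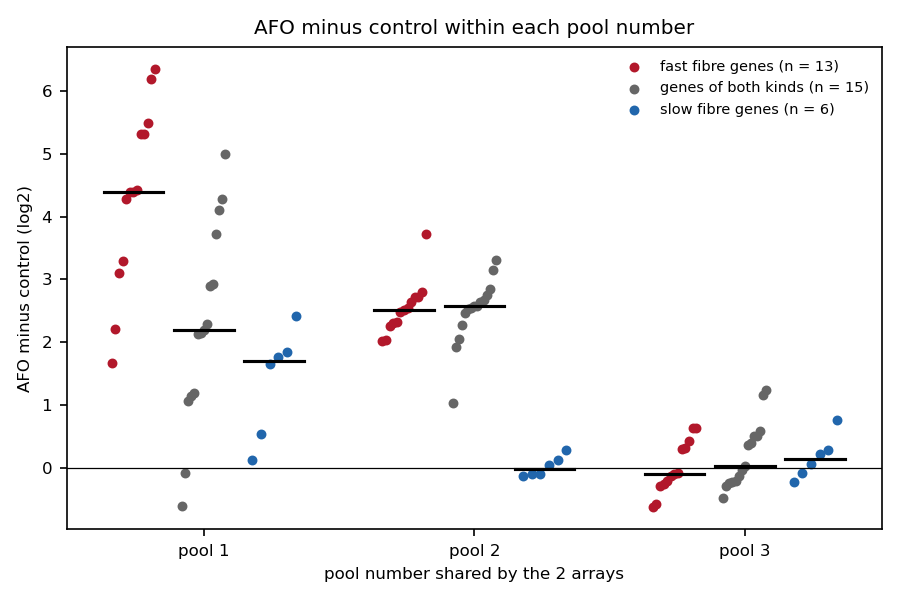
AFO minus control log2 difference (vertical axis) within each shared pool number (horizontal axis), 1 point for each gene, with fast genes in red, genes of both kinds in grey and slow genes in blue, and a black bar at each median. The fast genes lie between 1.67 and 6.36 in pool 1 and between 2.02 and 3.72 in pool 2, and scatter around 0 in pool 3. The slow genes reach 2.42 in pool 1 and lie near 0 in pool 2.

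Setting AFO against control fat asks what changes in the tissue when Fto is targeted in fat cells. The mean log2 difference of AFO minus control was above 0 for all 34 genes (47.3% of all genes), from 0.060 (Tpm2) to 2.94 (Myh1). Its median was 1.82, against -0.0095 over all genes, and 2.46 for fast, 0.60 for slow and 1.69 for genes of both kinds. Myh1 averaged 7.47 ± 4.26 in AFO fat and 4.53 ± 3.12 in control fat (SD, n = 3 each), so the SD of both genotypes was larger than the difference. Tnnt1, the member with the smallest unadjusted p, averaged 5.38 ± 0.80 in AFO fat and 4.44 ± 0.20 in control fat (SD, n = 3 each). Its mean over all arrays, 4.91, was just above the filter level of 4.88. All control arrays (4.39, 4.27 and 4.67) and AFO pool 2 (4.55) lay below that level. Tnnt1 therefore entered the test through AFO pools 1 and 3, and its control values are low signals of less certain size. Of the 34 genes 31 passed the filter on low values, and 0 of these passed limma at an adjusted p under 0.05 without pairing, where 0% of the 13453 genes tested passed. Each of the 31 had a limma adjusted p of 0.999999, with unadjusted p from 0.0501 (Tnnt1) to 0.843 (Tpm2), and 0 had an unadjusted p under 0.05 (1.03% of all genes tested). The groups did not overlap in 0 of the 34, whereas 2.26% of all genes had all AFO arrays above all controls and 1.75% all below.

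Over all genes tested, arrays of the same pool number varied together, most closely in pool 2. Pools 1 and 3 also correlated when crossed, at 0.441 and 0.362, against 0.594 and 0.589 for equal numbers. In most of the 34 genes AFO pool 1 and control pool 2 both stood above control pool 1. The labels do not state a pairing, and the fit was repeated with pool number as a block. Again 0 of the 31 genes passed, where 0.0149% of all genes tested did. Acta1 had the smallest limma adjusted p with the block, 0.256, with a difference of 1.82 (SE 0.20). At an unadjusted p under 0.05 the block gave 25 of the 31 genes, and 4.32% of all genes tested. In 15 of the 34 genes AFO was higher within all 3 pools, and 10.5% of all genes were. The differences moved with single arrays. Without AFO pool 2 the median over the 34 genes was 0.72 and that of fast minus slow genes -0.045, and 27 genes of the whole table passed limma, 0 of them members (0.201%). Without AFO pool 1 the median of the slow genes was 0.016, and without control pool 2 the median of the 34 was 2.59. Without both pool 2 arrays the median over the 34 genes was 1.42 and 0 members passed (0.676% of all genes tested). With the block on these 4 arrays 16 members passed by limma (2.01% of all genes tested), each of them 1.76 to 6.36 log2 units higher in AFO fat within pool 1 and -0.14 to 1.24 within pool 3. The sign also turned for a few genes: Tpm2 was at -0.42 and Ldb3 at -0.11 without both pool 2 arrays, Myh7 at -0.14 and Myl2 at -0.060 without AFO pool 1, and Myl3 at -0.11 without control pool 3. The blocked fit on 4 arrays has a single residual degree of freedom per gene before the spread is shared between genes.

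Other genes of skeletal muscle, from lists that do not hold the 34, went the same way in part. Of 25 further sarcomere and Z-disc genes 22 were measured, and all 22 had an AFO minus control log2 difference above 0, with a median of 0.92 and 0.82, 2.14 and -0.0082 within pools 1, 2 and 3. Of the 22, 16 passed the filter on low values, and 0 of those 16 passed limma without pairing or with the block. Trim63, a ubiquitin ligase that marks muscle proteins for breakdown, read 9.77, 11.47 and 5.30 in AFO fat, against 3.73, 9.43 and 4.54 in control fat, in the order of the fast genes. Cryab, a small heat shock protein, read 8.79, 11.31 and 8.68 in AFO fat, against 8.64, 8.02 and 8.53 in control fat, and Des, which encodes the muscle intermediate filament desmin, read 7.69, 9.39 and 7.08 in AFO fat, against 7.51, 7.60 and 7.15 in control fat. These 2 were high in AFO pool 2 only. Of 14 genes of muscle metabolism 13 were above 0, with a median of 1.05 (1.15, 1.70 and -0.067 within pools), and 0 of the 13 that could be tested passed. Cox8b, a cytochrome oxidase subunit of muscle and brown fat, read 8.39, 10.30 and 7.25 in AFO fat, against 7.05, 9.63 and 6.12 in control fat, and Pfkm, the muscle phosphofructokinase, read 8.17, 10.32 and 7.18 in AFO fat, against 7.27, 8.36 and 7.31 in control fat. Art3, an ADP-ribosyltransferase, read 10.30, 9.91 and 9.84 in AFO fat, against 10.69, 10.12 and 10.02 in control fat and did not have this order.

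Further genes of excitation-contraction coupling differed less. Of 19 listed 18 were measured, 14 of them above 0, with a median of 0.38 (0.053, 0.78 and 0.20 within pools), and 0 of the 14 that could be tested passed. In 7 of the 18, AFO pools 1 and 2 and control pool 2 stood above the other 3 arrays. Trdn, which encodes triadin of the calcium release complex, read 6.93, 9.33 and 4.46 in AFO fat, against 4.58, 6.58 and 4.22 in control fat, and Srl, which encodes sarcalumenin of the sarcoplasmic reticulum, read 6.94, 9.44 and 4.97 in AFO fat, against 5.35, 6.96 and 4.79 in control fat. These 2 had that order and were chosen after their values were seen. Atp2a2, the calcium pump of slow muscle, heart and many other cells, read 10.92, 10.35 and 10.64 in AFO fat, against 10.75, 10.60 and 10.94 in control fat, and Asph, a hydroxylase gene whose short forms sit at the calcium store, read 9.50, 9.67 and 10.27 in AFO fat, against 9.53, 10.07 and 10.58 in control fat. Jph2, which ties the cell membrane to the calcium store, read 6.57, 7.12 and 6.83 in AFO fat, against 6.90, 6.66 and 6.51 in control fat. Atp2a2, Asph and Jph2, the 3 brightest of the list, did not have that order. Of 13 measured genes of the neuromuscular junction and fibre membrane 8 were above 0 (median 0.073, 0 of the 11 tested passing), and Dmd, which encodes dystrophin, read 7.68, 7.20 and 8.26 in AFO fat, against 7.48, 6.55 and 8.11 in control fat. The myogenic factors and satellite cell genes had 9 of 9 measured above 0 with a median of 0.14. Of these 4 passed the filter on low values, and 0 of the 4 passed limma. Mef2c, a transcription factor of muscle and other cells, read 7.21, 8.02 and 7.17 in AFO fat, against 7.14, 7.58 and 7.28 in control fat. The 2 developmental myosins Myh8 and Myh3 read 4.53, 4.83 and 4.27 in AFO fat, against 4.02, 4.46 and 3.72 in control fat and 3.83, 4.15 and 3.93 in AFO fat, against 3.79, 3.97 and 3.99 in control fat, all below the filter on average.

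Markers of other tissues were read in the same arrays. Cardiac muscle genes had 6 of 12 above 0 and a median of -0.00031, and Actc1, cardiac actin, read 5.85, 7.74 and 5.78 in AFO fat, against 6.31, 6.15 and 5.42 in control fat. Smooth muscle genes had 2 of 9 above 0 and a median of -0.28, and their list median was lowest in both pool 2 arrays, with Acta2, smooth muscle actin, at 11.26, 10.32 and 11.28 in AFO fat, against 11.75, 10.63 and 11.37 in control fat. The sums of linear signal over the 34 muscle genes were 2570 to 74980 in AFO fat and 2669 to 15185 in control fat. In the pool 2 arrays, where the fast genes were high, the B cell and T cell lists were high and the mesothelial list low. All 6 measured B cell genes and 6 T cell genes were highest in a pool 2 array, with summed linear signals of 176 to 2740 and 186 to 1442 in AFO fat and 178 to 1763 and 202 to 1205 in control fat. The 7 mesothelial genes summed to 220 to 2471 in AFO fat and 565 to 2297 in control fat. In AFO pool 1, where the fast genes were as high as in control pool 2 and the slow genes were high, the B and T cell lists were about as low as in AFO pool 3. There 2 of the 7 measured epididymis and epithelium genes were high in that array alone: Adam7, a sperm maturation protein of the epididymis, read 8.07, 4.97 and 4.64 in AFO fat, against 4.73, 5.10 and 4.64 in control fat, and Lcn8, an epididymal lipocalin (chosen after its values were seen), read 8.72, 4.73 and 4.54 in AFO fat, against 4.72, 4.92 and 4.44 in control fat. The other genes of this list were not high in that array alone. Krt18 read 8.55, 5.73 and 8.71 in AFO fat, against 7.06, 8.02 and 7.06 in control fat. Cdh1, Lcn5 and Defb1 were also chosen after their values were seen. Cdh1 read 6.59 in AFO pool 1, but also 5.82 in AFO pool 3 and 6.13 in control pool 2. Lcn5 was highest in AFO pool 3 (4.23) and Defb1 in control pool 2 (5.11). The 7 genes of this list summed to 263 to 1331 in AFO fat and 299 to 542 in control fat. The part of these cells in the muscle gene values was not tested.

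**Figure D4:**
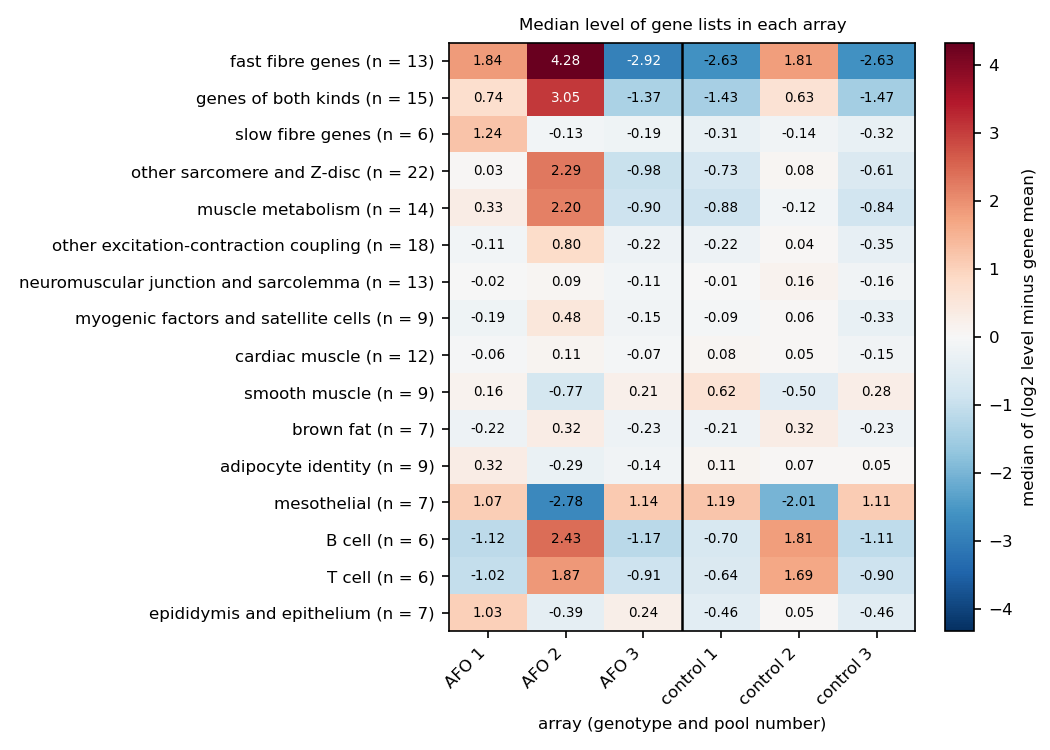
Median over the genes of each list (rows, with the number measured) of the log2 level minus the gene's mean over 6 arrays, in the 3 AFO and 3 control arrays (columns). The fast genes reach 4.28 in AFO pool 2, 1.84 in AFO pool 1 and 1.81 in control pool 2, the slow genes reach 1.24 in AFO pool 1, and the B and T cell lists are high in both pool 2 arrays only.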

How the data were processed

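Total RNA of 6 pools was labelled with biotin, per the labels' protocols. Deposited log2 values came from RMA by the authors in Affymetrix Expression Console 1.4, per the submitters' processing notes. RMA normalises by quantiles, so it hides a shift common to most genes, and it compresses low signals.

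Of 45101 probe sets, 34945 had 1 symbol in the platform annotation. The brightest probe set on average stood for each of 18193 genes, and 13453 with a mean at or above the 40th percentile (4.88) were tested. Groups and pool numbers came from the sample titles and descriptions. Genotypes were tested in R 4.3.3 with limma 3.58.1 (empirical Bayes with trend, Benjamini-Hochberg over all genes tested). The fit was also run on simulated data with independent genes and no pool effect. That run does not check it for pools that vary together. Deviations from the genotype means correlated over genes at 0.594, 0.799 and 0.589 for equal pool numbers 1, 2 and 3. AFO pool 3 with control pool 1 reached 0.441, and AFO pool 1 with control pool 3 reached 0.362.

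The members and lists were chosen with earlier results of these data known. All 34 members are named. From the other lists the text names genes among the 3 with the highest mean, unless said otherwise. P-values measure the spread between these pools. Alternatives covered filters, normalisation, probe set choice, empirical Bayes settings, array weights, the block and omitted arrays.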

Additional observations from a re-analysis of the deposited data

How the results depend on the processing

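Of the 13453 genes tested, 0 passed limma in the fit as reported, and 139 had an unadjusted p under 0.05. The count was again 0 with no filter or a stricter one, other normalisations or probe sets, no trend, robust estimation and array weights. It was 2 with the replicate block (pool number), 91 without both pool 2 arrays and 270 without them and with the block. Leaving out 1 array at a time gave 0 to 27, and 27 was without AFO pool 2. The count of muscle genes passing was 0 in each of these settings, except 16 with the block and no pool 2 arrays. The block changed no other call of a muscle gene. The median difference of the 34 genes (1.82) lay between 0.72 and 3.09 with 1 array left out, that of the fast genes between 0.77 and 4.28, and that of the slow genes between 0.016 and 0.90. Fast minus slow (1.87) lay between -0.045 (without AFO pool 2) and 3.38. The sign turned for Tpm2 (-0.37 with array weights, -0.42 without both pool 2 arrays with or without the block, -0.18 without AFO pool 2 and -0.18 without control pool 2, up to 0.24 with 1 other array left out), Ldb3 (-0.054 with array weights, -0.11 without both pool 2 arrays with or without the block), Myh7 (-0.14, otherwise up to 0.88) and Myl2 (-0.060, otherwise up to 1.23) without AFO pool 1, and Myl3 (-0.11 without control pool 3, otherwise up to 0.20). Beside these 11 values and the 16 called genes, 585 values of single genes kept their sign and call. The cause of these moves was not tested. Of the 34, 3 were too dim to be tested, and 3 arrays per genotype limit precision.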

Other observations

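Ckmt2, the mitochondrial creatine kinase of muscle (chosen after its values were seen), had log2 levels of 6.49, 8.90 and 3.38 in AFO fat, against 3.14, 4.66 and 3.00 in control fat. It did not pass limma without pairing or with the block. Fbp2, of the same muscle metabolism list and also chosen after its values were seen, read 6.93, 7.14 and 6.78 in AFO fat, against 5.33, 5.76 and 5.61 in control fat. Its AFO arrays all stood above all controls, as in 2 of the 14 genes of that list and 2.26% of all genes. It was higher in AFO fat by 1.60, 1.38 and 1.17 within pools 1, 2 and 3. Fbp2 did not pass limma either, with an adjusted p of 0.203 with the block.

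Brown fat genes did not all share the order of the muscle genes. AFO pools 1 and 2 and control pool 2 stood above the other arrays in 2 of the 7 measured. Of all genes 5.86% had that order. Cidea, a lipid droplet protein, had log2 levels of 7.31, 10.63 and 5.13 in AFO fat, against 5.45, 10.36 and 4.46 in control fat. It was 1 of these 2 genes, with both pool 2 arrays high and AFO pool 1 next. Ucp1, the uncoupling protein of brown fat (chosen after its values were seen), read 4.41, 9.22 and 4.41 in AFO fat, against 4.54, 5.79 and 4.19 in control fat, highest in AFO pool 2 with control pool 2 next. Prdm16, a regulator of brown fat identity, read 5.90, 5.78 and 5.98 in AFO fat, against 6.10, 6.38 and 6.18 in control fat, with every AFO array below every control array, as in 1.75% of all genes. It did not pass limma. Ppargc1a, a coactivator of mitochondrial genes, read 5.62, 5.86 and 6.32 in AFO fat, against 5.83, 5.98 and 5.84 in control fat, and the groups overlapped.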
